A study of Mus musculus with 6 samples.

Results

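This report describes the genes of mouse chromosome 4 in mammary tumors: every Ensembl gene ID placed on that chromosome in the GRCm38 annotation with a mean of at least 0.5 FPKM (reads scaled to gene length and library size) over the 6 tumors. The rule kept 926 of the 2873 chromosome 4 gene IDs in the files, out of 15069 genes over all chromosomes that passed the same minimum. The chromosome was chosen because its genes were, as a set, lower in the anti-PD-1 tumors than in the IgG tumors. Every value of that contrast below is therefore a description: p-values of the fit over all genes serve only to count genes, and nothing about the chromosome is supported by them. The tumors came from NeuT/ATTAC mice, which carry MMTV-NeuT (an activated Erbb2 oncogene driven in mammary epithelium) and the FAT-ATTAC transgene on an FVB background into which a C57BL/6 transgenic line had been crossed. In both groups, AP20187 at 0.4 mg/kg from 6 weeks of age dimerized the ATTAC protein in adipocytes to induce mammary fibrosis. From 8 weeks of age, the mice received an anti-PD-1 antibody or an isotype IgG, each at 100 µg per injection and 2 injections per week. The labels give 6 separate samples, 3 per group, each with 1 RNA-seq library, and each library is called a tumor here. The study also describes the tumor RNA of each group as pooled for sequencing, so the number of tumors or mice behind a library is not certain.

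Chromosome 4 of the mouse holds many genes that lie on the short arms of human chromosomes 1 and 9, among them the Cdkn2a and Cdkn2b locus, Arid1a, Jak1 and the C1q genes. In cells that gain or lose a copy of a chromosome, the RNA of most of its genes shifts by a similar modest factor, while some genes are held near their former level by their own regulation. Loss of chromosome 4 material is known from neu-driven mouse mammary tumors. DNA was not measured here, and whether copy number differed between these tumors was not tested.

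Promoters of 4 genes are printed because they stand for the main patterns below. Epha2 was among the genes with the largest difference downward, Map3k7 followed the chromosome's median most closely, and Cdkn2b and Tspan1 were the genes furthest above IgG among well expressed members. Each run holds the 250 bases before the RefSeq transcription start on GRCm38.p6, written 5′ to 3′ on the gene's own strand, with CG dinucleotides in capitals. Epha2 lies at chr4:141300971-141301220 (plus strand), Map3k7 at chr4:31963857-31964106 (plus strand), Cdkn2b at chr4:89311033-89311282 (minus strand) and Tspan1 at chr4:116167599-116167848 (minus strand).
Epha2: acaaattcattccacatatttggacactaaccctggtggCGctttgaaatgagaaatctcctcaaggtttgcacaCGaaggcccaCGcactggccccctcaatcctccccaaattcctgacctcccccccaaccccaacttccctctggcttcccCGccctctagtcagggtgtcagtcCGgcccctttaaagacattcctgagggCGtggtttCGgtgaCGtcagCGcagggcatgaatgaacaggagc
Map3k7: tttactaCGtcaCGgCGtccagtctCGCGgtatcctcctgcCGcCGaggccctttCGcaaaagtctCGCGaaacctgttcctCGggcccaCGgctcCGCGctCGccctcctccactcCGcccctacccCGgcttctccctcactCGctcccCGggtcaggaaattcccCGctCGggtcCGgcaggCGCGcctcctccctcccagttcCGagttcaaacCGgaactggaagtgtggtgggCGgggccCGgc
Cdkn2b: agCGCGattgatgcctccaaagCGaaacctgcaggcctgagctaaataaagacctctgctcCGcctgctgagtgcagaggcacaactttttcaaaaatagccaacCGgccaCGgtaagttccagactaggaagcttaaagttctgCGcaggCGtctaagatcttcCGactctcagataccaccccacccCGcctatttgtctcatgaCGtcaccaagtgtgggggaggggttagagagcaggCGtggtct
Tspan1: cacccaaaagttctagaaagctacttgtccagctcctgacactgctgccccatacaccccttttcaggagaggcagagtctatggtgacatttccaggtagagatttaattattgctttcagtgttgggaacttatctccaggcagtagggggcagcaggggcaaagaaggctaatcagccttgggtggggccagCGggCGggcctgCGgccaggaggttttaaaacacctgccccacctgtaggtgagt
The Map3k7 promoter held 28 CG dinucleotides, that of Cdkn2b 12, that of Epha2 9 and that of Tspan1 3. RefSeq promoters were matched for 671 of the 926 members by symbol. A CpG-island-like composition, defined as at least 50% G and C and an observed to expected CG ratio of at least 0.6, was found in 63.0% of these, against 31.0% of all 32851 promoters in the table. The 32851 were taken without a minimum of expression and without reduction to 1 per gene, unlike the members. Expressed genes of other chromosomes were not compared, so the difference is not read as a trait of the chromosome. Among protein-coding members with a mean of at least 5 FPKM, the share was 69.7% of 333 matched promoters for genes below the all-gene median fold change and 48.6% of 35 for genes at or above it. The letters TATAAA, read on both strands, occurred in 7.51% of the former and 8.57% of the latter, against 12.4% of all promoters, and in none of the 4 printed runs.

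The libraries were of like depth, with totals implied by the FPKM steps between 22009897 and 25596224 reads. All 6 tumors expressed the luminal keratins Krt8 and Krt18, with Krt8 between 431 and 1041 FPKM. The summed FPKM of 10 luminal epithelial markers, none of them on chromosome 4, was 2260 to 3121 in the IgG tumors and 3161 to 4086 in the anti-PD-1 tumors, with 7 of 10 markers higher in the latter. The fibroblast sum was 104 to 300.5 against 116 to 410.3 FPKM, the macrophage sum 215 to 287 against 190.1 to 438 FPKM, and the T cell sum 3.10 to 9.65 against 3.20 to 3.69 FPKM. The myoepithelial sum was 7.90 to 13.3 against 5.43 to 6.78 FPKM and the endothelial sum 20.9 to 33.5 against 17 to 32.4 FPKM. B and plasma cell markers summed to 9.90 to 50.2 against 14.8 to 29.1 FPKM and adipocyte markers to 5.60 to 10.5 against 3.79 to 9.08 FPKM. Skeletal muscle markers summed to 179 FPKM in IgG replicate 2, 95.7 in anti-PD-1 replicate 1 and 195 in anti-PD-1 replicate 2, and to 7.51 or less in the other tumors. No marker of any list was at 0 in all tumors, and the part of these differences in the results below was not tested. In bulk tumors, fewer cells of a type and less RNA per cell cannot be told apart.

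Across the chromosome, 777 of the 926 genes had a log2 fold change (anti-PD-1 minus IgG, on log2(FPKM + 1)) below the median of all genes tested, a side that by construction holds 50% of all genes. The members' median was -0.40, with quartiles at -0.62 and -0.14, against 0.03 for the 12715 genes outside chromosomes 4, 9 and 15. The middle gene was thus at 75.7% of its IgG level on that scale. In limma, with Benjamini-Hochberg adjustment over all 15069 genes, no member passed an adjusted p of 0.05 (0% of all genes did). At an unadjusted p under 0.05, 269 members were lower (6.05% of all genes) and 17 higher (6.22% of all genes). The groups did not overlap for 283 members that were lower in anti-PD-1 tumors (8.99% of all genes) and for 18 that were higher (9.1% of all genes). Since the chromosome was selected on this contrast, nothing is read from those shares. The count of 269 changed when 1 tumor was left out, and so did the count over all genes. It was 429 without IgG replicate 1, 111 without IgG replicate 2 and 150 without IgG replicate 3. Without anti-PD-1 replicates 1, 2 and 3 in turn it was 193, 160 and 131. Over all genes, 1848 passed that level in either direction with all 6 tumors. In the same order of omission, 2679, 961, 1504, 1661, 1397 and 1158 did.

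The 6 tumors did not split by treatment alone. On the log2 scale, relative to each gene's mean over the 6 tumors, the median chromosome 4 gene stood at 0.37 in IgG replicate 2 and 0.33 in IgG replicate 3. It stood at -0.09 in IgG replicate 1 and at -0.16, -0.22 and -0.23 in anti-PD-1 replicates 1, 2 and 3. IgG replicate 1 therefore lay next to the anti-PD-1 tumors and away from the other two IgG tumors. For 529 of the 926 members, IgG replicates 2 and 3 were both above the other 4 tumors, an order held by 14.8% of all genes tested. In pairs of tumors, the median member was 0.47 lower on the log2 scale in IgG replicate 1 than in IgG replicate 2, which is a ratio of 0.723. The median difference between IgG replicate 1 and each anti-PD-1 tumor was smaller, at 0.05, 0.12 and 0.13, with 56.5% to 64.8% of members higher in IgG replicate 1. IgG replicates 2 and 3 differed from each other by 0.02, while each exceeded each anti-PD-1 tumor by 0.48 to 0.59, a ratio of 1.39 to 1.5. The spread inside the IgG group was thus about as large as the distance between its upper tumors and the anti-PD-1 group.

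**Figure D1:**
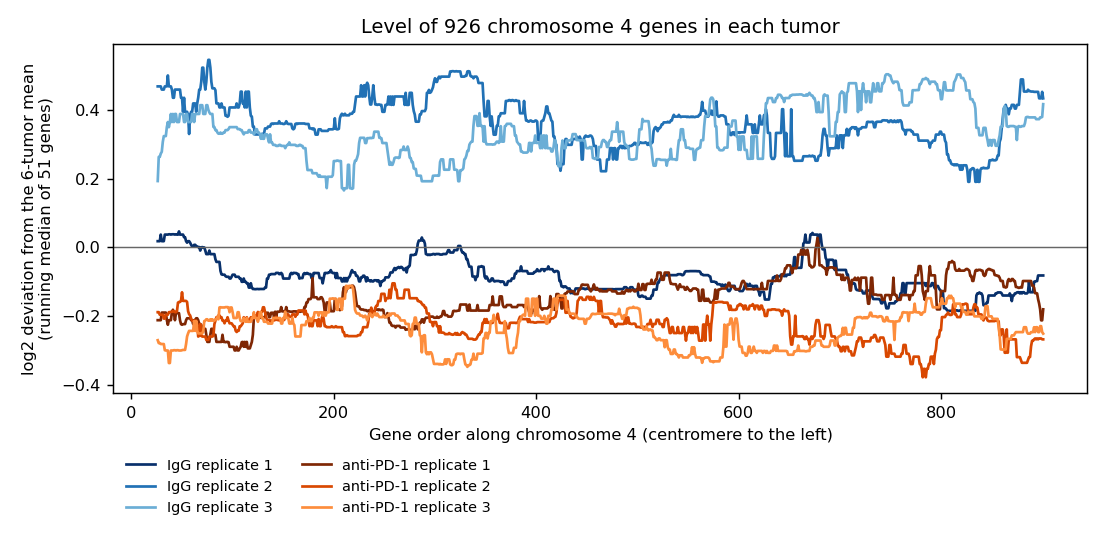
Running median over 51 genes of the log2 deviation from each gene's 6-tumor mean (y axis) for the 926 genes in their order along chromosome 4 (x axis), with 1 line per tumor, blue for IgG and orange for anti-PD-1. IgG replicates 2 and 3 run above 0 along the whole chromosome. In windows of 10 Mb, the median of IgG replicate 1 lay between -0.18 and 0.07.

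In IgG replicates 2 and 3 and the 3 anti-PD-1 tumors, the shift ran the length of the chromosome rather than sitting in 1 segment. In 16 windows of 10 Mb holding 8 to 147 members each, IgG replicates 2 and 3 had a median above 0 in every window and the 3 anti-PD-1 tumors a median below 0 in every window, while IgG replicate 1 was below 0 in 13. IgG replicate 2 ranged from 0.26 in the window starting at 110 Mb to 0.62 in the first window. IgG replicate 3 ran the other way, from 0.16 in the first window to 0.47 in the window starting at 140 Mb. These upper tumors thus differed in where the level was highest, and the window at 70 Mb, a gene-poor stretch, held only 8 members. Anti-PD-1 replicate 1 was furthest down at 30 Mb (-0.29) and nearest to 0 at 140 Mb (-0.05). Anti-PD-1 replicate 2 lay between -0.30 and -0.0044 and anti-PD-1 replicate 3 between -0.35 and -0.05. The window medians of 1 tumor varied with an SD of 0.06 to 0.09. The median fold change was -0.42 for the 278 members that start below 80 Mb and -0.40 for the 648 beyond, and the share of lower members per window was 78.7% to 92.3%.

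Set against the other chromosomes, the median of chromosome 4 lay outside the range of X and the 16 other autosomes (leaving out 9 and 15) in 5 of 6 tumors. With 9 and 15 included it did so in 2 of 6, IgG replicate 2 and anti-PD-1 replicate 1. With them left out, the exception was anti-PD-1 replicate 2, in which chromosome 8 was lower still, at -0.29. The highest median of those other chromosomes in any tumor was 0.20, for chromosome 2 in IgG replicate 3. Among those shown, chromosome 9 alone also had IgG replicates 2 and 3 above 0.3, at -0.13, 0.33 and 0.33 in IgG replicates 1, 2 and 3 and at -0.04, -0.26 and -0.26 in anti-PD-1 replicates 1, 2 and 3. Both chromosomes were read in the same 6 libraries, so the likeness is a description of these libraries.

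**Figure D2:**
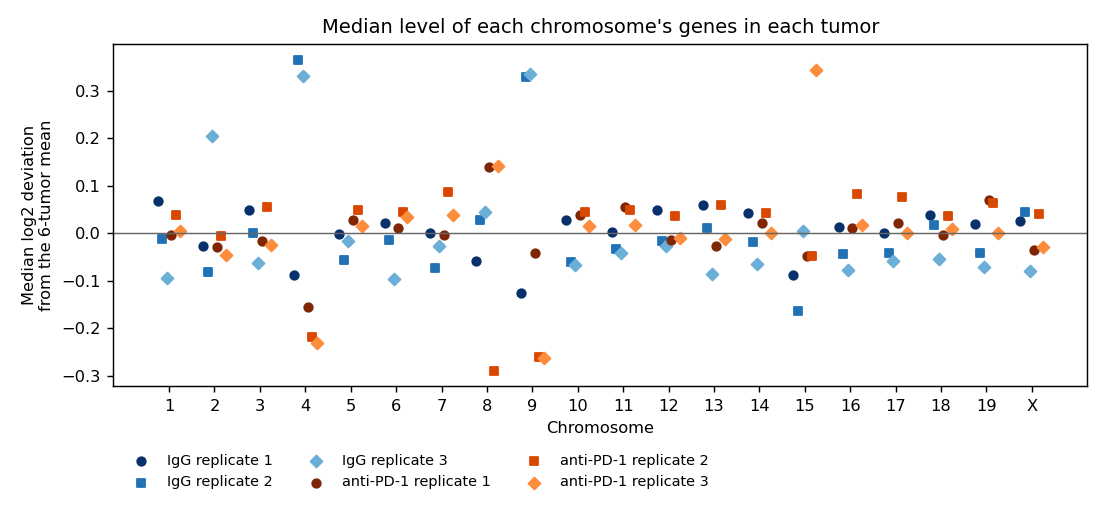
Median log2 deviation from the 6-tumor mean (y axis) of the tested genes of each autosome and X (x axis), with 1 point per tumor, blue for IgG and orange for anti-PD-1. On chromosome 4 IgG replicates 2 and 3 stand at 0.37 and 0.33 and the other 4 tumors lie between -0.23 and -0.09.

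Genes of low and high expression shared the shift, within what the pseudocount allows. All tested genes were cut into 5 equal groups by mean FPKM. In the lowest group (0.5 to 1.40 FPKM) the median fold change of 177 members was -0.19, and 118 were lower. In the 3 upper groups it was -0.47, -0.46 and -0.46, with 192 of 213, 157 of 173 and 143 of 160 members lower. With a pseudocount of 0.1 instead of 1, the medians from the lowest to the highest group were -0.38, -0.54, -0.54, -0.50 and -0.48. The gap between low and high genes was smaller on that scale, since adding 1 shrinks the fold change of a gene near 1 FPKM. Genes outside chromosomes 4, 9 and 15 had medians between -0.01 and 0.04 in the lower 4 groups and of 0.13 in the highest. By type, the 793 protein-coding members had a median of -0.42, the 30 antisense genes -0.22 and the 17 lincRNA genes -0.32. The 40 processed pseudogenes were at 0.01, with 19 lower, and the 10 miRNA genes at 0.04, with 5 lower. Processed pseudogenes are copies of genes that mostly lie elsewhere, and whether their reads stemmed from other chromosomes was not tested.

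**Figure D3:**
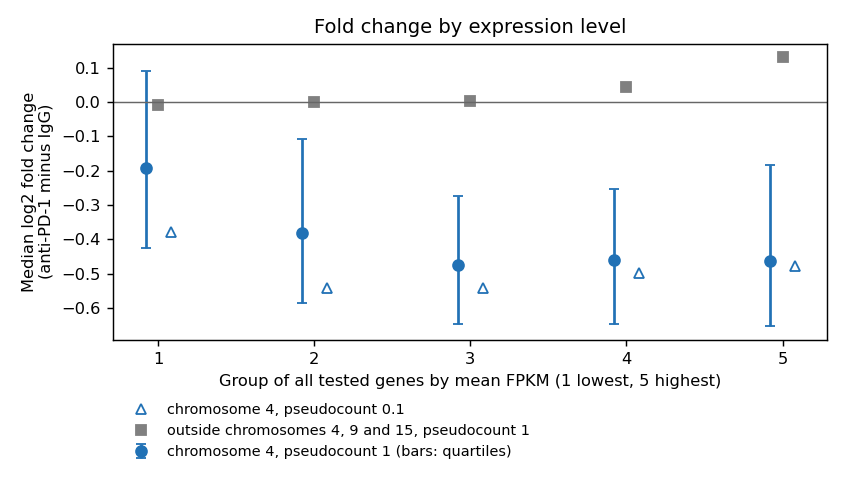
Median log2 fold change, anti-PD-1 minus IgG (y axis), in 5 equal groups of all tested genes by mean FPKM (x axis), for chromosome 4 with a pseudocount of 1 (filled circles, bars from the lower to the upper quartile) and of 0.1 (open triangles), and for genes outside chromosomes 4, 9 and 15 (squares). The circles go from -0.19 in the lowest group to between -0.47 and -0.46 in the upper 3.

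The genes that followed the chromosome most closely were ranked by the Pearson correlation of their log2 values with the chromosome's median over the 6 tumors, a ranking set largely by IgG replicates 2 and 3. They came from different functions: Map3k7 (the kinase TAK1 of TGF-beta and inflammatory signaling), Tmem222, Zmym4, Dennd4c (an exchange factor for Rab GTPases) and Dcaf12 (a substrate receptor of a ubiquitin ligase). Map3k7 was at 8.04, 14.9 and 13.3 FPKM in IgG replicates 1, 2 and 3 and at 7.17, 7.02 and 7.01 FPKM in anti-PD-1 replicates 1, 2 and 3. Only IgG replicates 2 and 3 stood out, and the other 4 tumors lay between 7.01 and 8.04 FPKM. Dennd4c was at 4.96, 10.0 and 9.77 FPKM in the IgG tumors and at 4.30, 4.61 and 3.90 FPKM in the anti-PD-1 tumors, in the same order. Its mean was 8.25 ± 2.85 FPKM (SD, n = 3) in IgG and 4.27 ± 0.357 FPKM (SD, n = 3) in anti-PD-1 tumors, a ratio of 0.517. Dcaf12 differed less, with a ratio of means of 0.756, at 15.7, 21.1 and 21.4 FPKM against 15.5, 14.1 and 14.5 FPKM. In all 5 genes IgG replicate 1 was above all 3 anti-PD-1 tumors, but by less than its distance to the other IgG tumors.

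Among the most abundant members were Rps6, which encodes a protein of the small ribosomal subunit, Eno1 (the glycolytic enzyme enolase), Prdx1 (a peroxiredoxin that removes peroxides) and C1qa (a chain of the complement protein C1q, made by macrophages). Rps6 was at 292, 428 and 382 FPKM in the IgG tumors and at 292, 264 and 260 FPKM in the anti-PD-1 tumors. This gene was high in IgG replicates 2 and 3 alone. Eno1 stood out in IgG replicate 3 only, at 372 FPKM against 162 to 219 in the other 5 tumors. Prdx1 was highest in IgG replicate 2 (313 FPKM) and did not overlap between groups, at 156 to 313 against 118 to 144 FPKM. C1qa went the other way, at 148, 184 and 97.3 against 208, 125 and 205 FPKM, and its groups overlapped.

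Of 22 genes known to be sensitive to the loss of 1 copy, 20 were members. All 20 had a fold change below the all-gene median, and all had a mean of at least 2 FPKM. Of all members at that level, 90.2% were lower. At an unadjusted p under 0.05, 13 of the 20 were lower (6.05% of all genes, and 269 of all 926 members). The 20 genes had a median of -0.63, against -0.40 for all members and -0.47 for protein-coding members of at least 5 FPKM. Pax5 and Prdm16 were below the minimum of 0.5 FPKM. Arid1a, a subunit of the SWI/SNF chromatin remodeling complex and a tumor suppressor, was at 10.2, 13.6 and 19.1 FPKM in IgG replicates 1, 2 and 3 and at 8.81, 3.22 and 7.55 FPKM in anti-PD-1 replicates 1, 2 and 3. The groups did not overlap, and anti-PD-1 replicate 2 was lowest. Its log2 fold change was -1.07 ± 0.36 (SE), and -0.69 without anti-PD-1 replicate 2. Kif1b, a kinesin that moves mitochondria and synaptic vesicles, gave -1.07 ± 0.31, with 5.94, 10.8 and 15.2 FPKM against 4.99, 3.64 and 4.08 FPKM. Ahdc1 was at 4.02, 10.4 and 8.35 against 3.89, 3.22 and 3.36 FPKM, and Ago1, an Argonaute protein that carries microRNAs, at 8.12, 13.7 and 19.1 against 7.47, 6.79 and 6.20 FPKM. In both, IgG replicate 1 was close to the anti-PD-1 tumors. Rere, Chd7, Nfia and Nfib, which encode regulators of transcription and chromatin, had fold changes of -0.81, -0.59, -0.65 and -0.86. At the other end, Slc2a1, the glucose transporter GLUT1, was at 37.7, 35.1 and 35.3 against 27.0, 35.7 and 45.4 FPKM (fold change -0.02, and 0.16 without anti-PD-1 replicate 1), with the groups overlapping.

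Tumor suppressor genes were divided. Of 33 listed, 27 were members and 21 were lower, with 10 lower (6.05% of all genes, and 269 of all 926 members) and 1 higher (6.22% of all genes) at an unadjusted p under 0.05 and a median of -0.32, which was -0.57 without IgG replicate 1. Beside Arid1a and Kif1b, Errfi1 (an inhibitor of the EGF receptor family that includes Erbb2) was at 72.2, 71.4 and 88.3 FPKM in the IgG tumors and at 58.4, 48.6 and 48.6 FPKM in the anti-PD-1 tumors. Here IgG replicate 1 stood with the other IgG tumors. Casp9, the initiator caspase of the mitochondrial death pathway, was at 3.86, 6.11 and 5.80 against 2.83, 2.95 and 2.84 FPKM. Trp53inp1 (-0.65), Prdm2 (-0.67), Casp8ap2 (-0.63), Dffa (-0.53), Faf1 (-0.47) and Ctnnbip1 (-0.66) were the others lower at that level. Sdhb, a subunit of succinate dehydrogenase, was at 21.9, 37.6 and 28.5 against 23.2, 26.0 and 25.6 FPKM and overlapped. The members above IgG were Cdkn2a, Cdkn2b, Sfn, Epha7, Runx3 and Mutyh, and the last 2 had fold changes of 0.06 and 0.02. Runx3 was at -0.19 without anti-PD-1 replicate 1 and Mutyh at -0.14 without IgG replicate 2.

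Cdkn2a and Cdkn2b were above IgG on a chromosome where most genes were below it. Both genes encode inhibitors of the cyclin-dependent kinases that drive entry into the cell cycle, and Cdkn2a also encodes ARF, an activator of p53. Cdkn2b (chr4:89306299-89311039, minus strand) was at 8.73, 6.74 and 2.06 FPKM in IgG replicates 1, 2 and 3 and at 14.4, 14.4 and 16.7 FPKM in anti-PD-1 replicates 1, 2 and 3. Every anti-PD-1 tumor was above every IgG tumor, and IgG replicate 3 was lowest. The log2 fold change was 1.40 ± 0.41, and 0.90 without IgG replicate 3. Cdkn2a (chr4:89274471-89294653, minus strand) was at 12.6, 9.74 and 2.17 against 10.5, 12.7 and 28.5 FPKM, so that the groups overlapped and the difference of 1.11 ± 0.59 became 0.47 without IgG replicate 3. The files give 1 value for Cdkn2a and do not separate its transcripts. Mtap, the next protein-coding gene on the centromeric side, which salvages adenine and methionine, was at 6.58, 9.76 and 7.70 against 6.83, 7.76 and 6.81 FPKM. Its fold change of -0.13 became 0.0059 without IgG replicate 2.
Further out on the same side, Klhl9 (a ubiquitin ligase adaptor) was at 23.4, 46.3 and 23.1 against 16.9, 18.9 and 18.1 FPKM. Hacd4, an enzyme of fatty acid elongation, was at 3.01, 4.21 and 3.58 against 1.33, 1.28 and 1.45 FPKM, and Mllt3, a reader of histone acylation, at 4.10, 7 and 9.25 against 2.42, 2.68 and 2.73 FPKM. All 3 were lower in every anti-PD-1 tumor than in every IgG tumor. Focad, which starts between Mllt3 and Hacd4, overlapped between groups. It was at 1.00, 1.45 and 1.94 against 0.891, 0.966 and 1.38 FPKM, a log2 fold change of -0.23. On the other side, the sparsely expressed Dmrta1 was at 1.23, 0.169 and 0.0879 against 0.419, 0.855 and 3.41 FPKM, a log2 fold change of 0.68, with overlapping groups and IgG replicate 3 lowest again. From Mllt3 to Dmrta1 the files list 74 gene IDs, 18 of them type I interferon genes by name, and 10 were members.

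Oncogenes and growth-promoting genes had a median of -0.45, with 20 of 24 members lower, 7 of them at an unadjusted p under 0.05 (6.05% of all genes), and none higher at that level (6.22% of all genes). A like share of all members, 269 of 926, was lower at that level. Without IgG replicate 2 the median was -0.23. Epha2, a receptor tyrosine kinase for ephrin-A ligands that cooperates with Erbb2 signaling in mammary tumor models, had the largest difference of the list. It was at 26.8, 72.9 and 96.6 FPKM in IgG replicates 1, 2 and 3 and at 11.6, 14 and 15.5 FPKM in anti-PD-1 replicates 1, 2 and 3. The groups did not overlap, and all 3 IgG tumors were above the highest anti-PD-1 tumor. The ratio of means was 0.210 and the log2 fold change -1.99 ± 0.44, between -2.53 and -1.63 when any 1 tumor was left out. Jak1, the kinase that relays interferon and interleukin receptors, was at 28.9, 47.3 and 43.8 against 21.2, 18.9 and 20.9 FPKM, a fold change of -0.91 ± 0.21. Part of its exon sequence overlaps the annotated gene Raver2, so some reads could belong to either.
Nfib was at 32.0, 56.7 and 34.5 against 24.3, 21.1 and 18.9 FPKM. Ski, a repressor of TGF-beta signaling, was at 28.1, 43.4 and 56.0 against 28.2, 20.3 and 22.2 FPKM and overlapped through IgG replicate 1. Jun, a subunit of the transcription factor AP-1, was at 18.2, 37.2 and 24.0 against 18.9, 17 and 18.7 FPKM, so only IgG replicates 2 and 3 exceeded the anti-PD-1 tumors. Mtor, the growth kinase, was low throughout, at 3.35, 4.56 and 6.23 against 3.17, 2.72 and 3.25 FPKM. Id3 (0.14), Csf3r (0.13), Fgr (0.26) and Stil (0.19) were the 4 members above IgG, each with overlapping groups. These values changed when 1 tumor was left out. Id3 was at -0.00063 without anti-PD-1 replicate 1, Stil at -0.0047 without anti-PD-1 replicate 2 and Csf3r at 0.04 without IgG replicate 1. Fgr was at 0.15 without IgG replicate 3, and at 0.56 with all tumors and a pseudocount of 0.1. Mycl, Mos, Plag1, Tal1, Pax7 and Prdm16 were among those below the minimum.

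**Figure D4:**
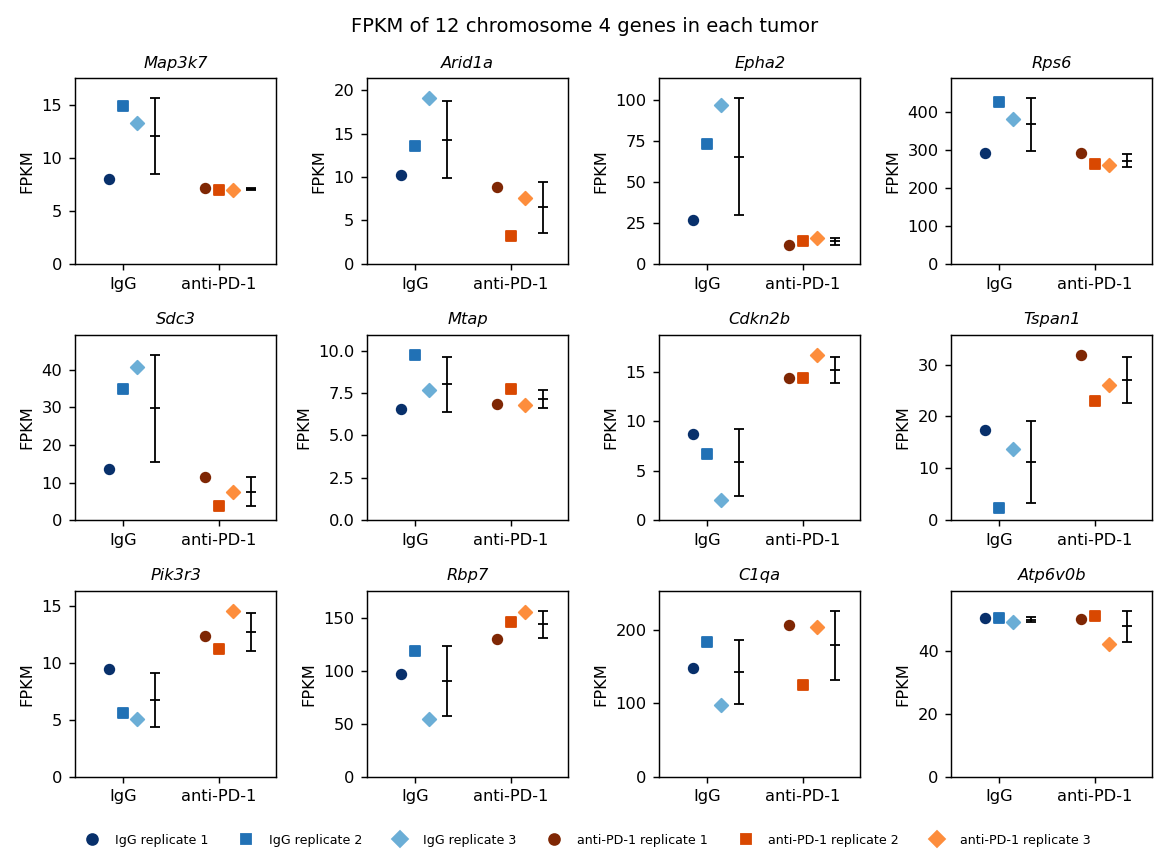
FPKM (y axis, from 0) of 12 genes in each of the 3 IgG (blue) and 3 anti-PD-1 (orange) tumors, with group mean and SD as black bars (n = 3). Map3k7, Rps6 and Epha2 are high in IgG replicates 2 and 3, while Cdkn2b, Tspan1, Pik3r3 and Rbp7 are higher in every anti-PD-1 tumor than in every IgG tumor.

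All 5 ribosomal protein genes were below the all-gene median, 3 of them at an unadjusted p under 0.05 (6.05% of all genes), with a median of -0.62. Rpl22, a protein of the large subunit, was at 122, 161 and 102 FPKM in the IgG tumors and at 72.6, 65.2 and 65.4 FPKM in the anti-PD-1 tumors. Rpl11, whose free form binds the p53 inhibitor Mdm2, was at 172, 233 and 173 against 127, 123 and 113 FPKM, and Rps20 at 106, 148 and 102 against 78.6, 75.6 and 72.7 FPKM. In these 3 genes IgG replicate 1 stood near IgG replicate 3 and not near the anti-PD-1 tumors, unlike the chromosome's median. All 20 genes of RNA processing, translation and protein turnover were lower, with a median of -0.43 and 6 past an unadjusted p of 0.05 (6.05% of all genes, and 269 of all 926 members). The value nearest to 0 was that of the proteasome subunit gene Psmb2, at -0.11, and it was 0.05 without IgG replicate 2. Eif3i, a subunit of a translation initiation factor, was at 32.8, 52.9 and 44.4 against 26.3, 25.6 and 25 FPKM.
The 21 mitochondrial genes had a median of -0.22 (-0.38 without IgG replicate 1). Of these, 18 were lower and 4 past that level (6.05% of all genes, and 269 of all 926 members). Uqcrh, a subunit of respiratory complex III, was at 101, 151 and 94.2 against 79.0, 77.8 and 61.9 FPKM. Ndufs5 and Slc25a33 were among those above IgG, at 0.17 and 0.27. When 1 tumor was left out they came down to 0.10 (Ndufs5, IgG replicate 3) and 0.07 (Slc25a33, anti-PD-1 replicate 1). The 24 genes of DNA replication and mitosis had a median of -0.24 (-0.44 without IgG replicate 1). In that list, 19 were lower (777 of all 926 members) and 4 past that level (6.05% of all genes, and 269 of the 926). This list did not follow the tumor order of the chromosome: its median deviation was 0.08 in IgG replicate 2, 0.41 in IgG replicate 3, 0.15 in anti-PD-1 replicate 2 and -0.43 in anti-PD-1 replicate 3. Without anti-PD-1 replicate 3 its median was -0.02. Stmn1, a regulator of microtubules, was at 37.6, 41.5 and 65.0 against 45.1, 47.3 and 25.3 FPKM, with the 2 extreme values in the replicates numbered 3.

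The leukocyte list had 21 members of 29, with a median of 0.06 (0.26 without IgG replicate 2), 7 lower, 1 lower at an unadjusted p under 0.05 (Tlr4) and 1 higher (Cd72). Over all genes, 6.05% were lower and 6.22% higher at that level. The 3 C1q chains, products of macrophages, had a like order over the tumors. C1qb was at 89.1, 99.3 and 52.5 FPKM in the IgG tumors and at 128, 70.2 and 119 FPKM in the anti-PD-1 tumors, and C1qc at 48.0, 59.3 and 29.1 against 61.3, 41.1 and 64.7 FPKM. For all 3 chains, anti-PD-1 replicates 1 and 3 were highest and IgG replicate 3 lowest. The summed macrophage markers, none on chromosome 4, had the same 2 tumors highest, at 380 and 438 FPKM. Their lowest sum was in anti-PD-1 replicate 2 (190.1 FPKM) and not in IgG replicate 3 (215 FPKM). Tlr4, the receptor for lipopolysaccharide, was at 6.13, 11.7 and 4.35 against 2.97, 4.59 and 3.35 FPKM. The signals of lymphocytes were low: Lck, the kinase of the T cell receptor, was at 0.900, 1.82 and 0.909 against 0.774, 0.662 and 0.345 FPKM, and Tnfrsf9, Tnfrsf8 and Ccl21a were below the minimum.

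Stromal and vascular genes had a median of 0.06 as well, but with a wide spread, from -1.81 for Sdc3 to 0.94 for Col27a1. Of 20 members, 10 were lower. Col15a1, a collagen of basement membranes, was at 10.9, 4.53 and 10.4 FPKM in the IgG tumors and at 27.0, 9.03 and 16.6 FPKM in the anti-PD-1 tumors, and the groups overlapped. Mfap2, a protein of elastic microfibrils, was at 1.43, 0.723 and 1.15 against 4.74, 1.63 and 2.89 FPKM and did not overlap. In both genes anti-PD-1 replicate 1 was highest, and the fibroblast marker sum was highest in that tumor too, at 410.3 FPKM. Ece1, the endothelin-converting enzyme, was at 5.31, 10.9 and 8.97 against 3.89, 2.12 and 2.76 FPKM. Sdc3, a heparan sulfate proteoglycan of the cell surface, was at 13.7, 34.8 and 40.8 against 11.5, 3.72 and 7.61 FPKM. In these 2 genes IgG replicates 2 and 3 were highest. The list's median moved to -0.17 when anti-PD-1 replicate 1 was left out and to 0.17 when anti-PD-1 replicate 2 was left out.

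**Figure D5:**
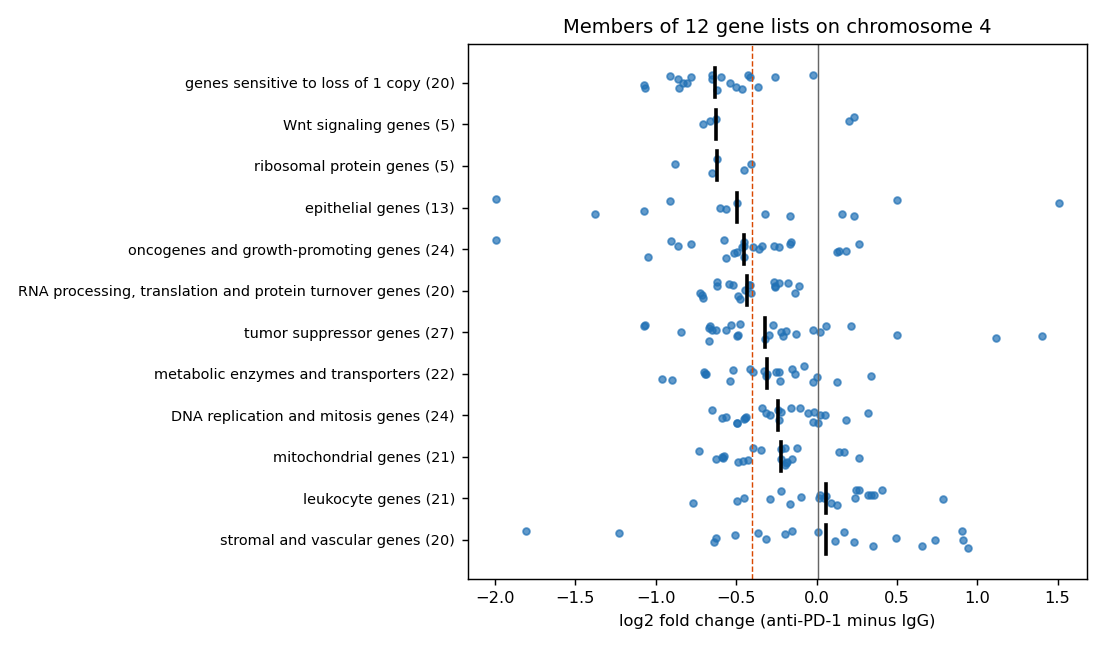
Log2 fold change, anti-PD-1 minus IgG (x axis), of the members of 12 gene lists (rows, with the number of members), with 1 point per gene and a black bar at each list's median. The solid line marks the median of all genes tested (0.01) and the dashed line that of chromosome 4 (-0.40). The leukocyte and stromal lists are centered at 0.06, and the other 10 lists lie between -0.63 and -0.22.

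Epithelial genes spread widely, from -1.99 for Epha2 to 1.51 for Tspan1. The list had 13 members of 18 with a median of -0.49 (-0.24 without members that overlap another gene), and 6 were lower (6.05% of all genes) and 1 higher (6.22% of all genes) at an unadjusted p under 0.05. Agrn, the proteoglycan agrin of basement membranes, was at 26.8, 48.2 and 29.5 FPKM in the IgG tumors and at 16.8, 16.4 and 13.3 FPKM in the anti-PD-1 tumors. Cited4, a coactivator, was at 68.7, 72.5 and 144 against 52.9, 38.1 and 51.9 FPKM. Esrp1, the splicing factor that sets epithelial isoforms, was at 27.6, 45.1 and 49.8 against 24.6, 30.7 and 22.4 FPKM. All 3 were highest in IgG replicates 2 and 3, whereas the summed luminal markers from other chromosomes were higher in the anti-PD-1 tumors. Wnt4, Cyp4b1, Sfn and Tspan1 were above IgG, and the values of Tspan1 are given with the genes of that kind.

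Metabolic enzymes and transporters had 20 of 22 members lower, with a median of -0.31 (-0.52 without IgG replicate 1). Plin2, which coats lipid droplets, was at 108, 175 and 81.3 FPKM in the IgG tumors and at 52.0, 64.3 and 60.0 FPKM in the anti-PD-1 tumors. Its groups did not overlap. Alpl, the tissue-nonspecific alkaline phosphatase, was at 15.2, 27.9 and 21.4 against 6.83, 12.6 and 14 FPKM. Car9, a carbonic anhydrase induced by hypoxia, was among the members above IgG (0.13), with overlapping groups, and was below it (-0.26) without anti-PD-1 replicate 3. Of the 5 Wnt signaling genes, Dvl1 (-0.70) and Ctnnbip1 (-0.66) were lower at an unadjusted p under 0.05. Wnt4 (0.23) and Lzic (0.20) were above IgG. Wnt4 was at 0.06 without anti-PD-1 replicate 3 and at 0.65 with a pseudocount of 0.1. Lzic was at 0.12 without IgG replicate 1. Rspo1 was above 0.3 FPKM in 1 tumor, IgG replicate 2, at 2.73 FPKM. Dvl1, which relays Frizzled receptors, was at 17.2, 30.6 and 21.1 against 17.7, 11 and 12 FPKM.

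Among 460 protein-coding members with a mean of at least 5 FPKM, 23 had a log2 fold change of -1 or lower, and the groups lay apart for 162 that were lower (8.99% of all genes tested were lower with groups apart). The 10 with the largest differences among these were Extl1, Epha2, Ttpa, Enho, Sdc3, Klhdc7a, Lurap1, Car8, Ggh and Ece1, from -2.05 to -1.23. Extl1, a glycosyltransferase of the exostosin family, was at 7.72, 30.9 and 15.3 FPKM in IgG replicates 1, 2 and 3 and at 3.28, 1.39 and 5.14 FPKM in anti-PD-1 replicates 1, 2 and 3. Ttpa, the transfer protein for vitamin E, was at 9.96, 37.5 and 13.7 against 4.17, 5.41 and 2.17 FPKM. Its neighbor Ggh, which trims folate polyglutamates, was at 34.8, 90.9 and 50.9 against 34.2, 23 and 13.4 FPKM. Both neighbors were highest in IgG replicate 2 and lowest in anti-PD-1 replicate 3. Enho, which encodes the peptide adropin, was at 12.1, 14.2 and 41.6 against 6.43, 1.62 and 6.80 FPKM, and Lurap1 at 5.18, 10.6 and 17.3 against 4.06, 2.73 and 3.5 FPKM. Klhdc7a was at 14.3, 42.7 and 38.6 against 8.36, 10.9 and 12.9 FPKM, and Car8, a carbonic anhydrase-related protein without that activity, at 16.4, 23.5 and 32.3 against 14.6, 5.96 and 8.02 FPKM. In all 10 genes IgG replicate 1 was the lowest IgG tumor, so the distance between the groups was smallest there. For 8 of the 10, the value nearest to 0 came from leaving out IgG replicate 2 or 3, as for Ttpa (-1.42) and Enho (-1.39). Sdc3, Enho, Klhdc7a and Lurap1 share exon positions with another annotated gene, and reads there could belong to either.

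Of the same 460 genes, 40 were at or above the all-gene median and are called escaping here, a name for that rule only. The 14 with a log2 fold change of at least 0.5 lay between Gne, an enzyme of sialic acid synthesis, at 44034075 and Acot7, an acyl-CoA thioesterase, at 152178134, and none lay nearer to the centromere. Of the 40, 11 were on the leukocyte or stromal lists, which together held 18 of the 460. Tspan1 (chr4:116161869-116167601, minus strand), a tetraspanin of epithelial membranes, was at 17.5, 2.42 and 13.8 FPKM in IgG replicates 1, 2 and 3 and at 31.9, 23.1 and 26.1 FPKM in anti-PD-1 replicates 1, 2 and 3. The groups did not overlap, and IgG replicate 2 was far below the rest. The log2 fold change of 1.51 ± 0.59 became 0.75 without that tumor. Pik3r3 (chr4:116221618-116303056, plus strand), a regulatory subunit of phosphoinositide kinases that begins 54017 bases beyond the end of Tspan1, was at 9.49, 5.60 and 5.09 against 12.4, 11.2 and 14.5 FPKM. It was the reverse of the chromosome: IgG replicates 2 and 3 were lowest, and IgG replicate 1 lay between them and the anti-PD-1 tumors. Its fold change of 0.87 ± 0.24 stayed between 0.72 and 1.11 when any 1 tumor was left out.
Rbp7, a retinol-binding protein of adipocytes and endothelium, was at 97.2, 119 and 54.1 against 130, 146 and 155 FPKM. Tinagl1, a secreted matrix protein, was at 14.7, 10.7 and 18.1 against 25.3, 19.7 and 25.6 FPKM. Ptpru, a receptor-type tyrosine phosphatase, was at 6.78, 4.63 and 6.37 against 7.53, 12.4 and 9.42 FPKM. None of these 3 overlapped between groups. Serinc2 (74.9, 79.2 and 69.2 against 113, 98.2 and 95.3 FPKM) and Sh3bgrl3 (34.2, 43.0 and 36.0 against 57.0, 52.6 and 43.8 FPKM) were also apart. With Tspan1, Cdkn2b and Pik3r3, these made up the 8 escaping genes whose groups did not overlap. Of all genes tested, 9.1% were higher with groups apart. Among the other escaping genes, some values rested on 1 tumor. Plpp3, a lipid phosphatase, was at 65.6 FPKM in anti-PD-1 replicate 2 and at 17.4 to 31.2 FPKM elsewhere. Ak4, a mitochondrial adenylate kinase, was at 1.31 FPKM in IgG replicate 2 and at 5.49 to 10.9 FPKM elsewhere, and without that tumor its difference was 0.02. Col27a1, a fibrillar collagen, was at 5.73, 1.58 and 19.5 against 3.98, 23 and 19.8 FPKM, with overlapping groups. Its difference was 0.21 without IgG replicate 2 and 1.70 without IgG replicate 3.

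A few genes hardly varied at all. The smallest range over the 6 tumors was that of Atp6v0b, a subunit of the proton pump that acidifies lysosomes, at 50.6, 50.6 and 49.4 FPKM in the IgG tumors and 50.4, 51.2 and 42.3 FPKM in the anti-PD-1 tumors. Yars, a tRNA synthetase for tyrosine, was at 5.19 to 6.61 FPKM, and Ptgr1, a reductase of prostaglandin metabolism, at 8.51 to 11.2 FPKM. Marcksl1, a membrane-bound actin regulator, was at 113 to 141 FPKM and 2610528J11Rik at 13.5 to 18.2 FPKM. Pgm1, which converts glucose phosphates, was ranked with Pik3r3, Cdkn2b, Ptpru and Tspan1 as least like the chromosome, at 21.9, 16 and 18.7 against 21.8, 25.3 and 20 FPKM.

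Of the 2873 gene IDs, 1642 had any value above 0. Of 22 Mup genes, which encode the major urinary proteins of liver and glands, 2 were members, and of 11 Skint genes and 19 type I interferon genes none was. Of 16 Cyp4 genes 1 (Cyp4b1) was a member. Near the minimum of 0.5 FPKM, protein-coding genes just inside included Tnfrsf4 (0.516) and Hspb7 (0.519), and those just outside were Crocc (0.494), Tnfsf8 (0.468) and Raver2 (0.466). Raver2 was at 0.179, 0.933 and 1.19 against 0.259, 0.0520 and 0.186 FPKM, so that IgG replicates 2 and 3 were highest here too, at a level below the rule. It overlaps exon sequence of the more abundant Jak1, so some of these reads could belong to Jak1.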

How the data were processed

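Tumor RNA of NeuT/ATTAC mice was measured by RNA-seq in 6 libraries, 3 IgG and 3 anti-PD-1, grouped by the labels. The study describes the RNA of a group as pooled, while the labels list separate samples, so the spread is that between libraries, which may be technical. Per the labels and the study's methods, the authors processed reads with FastQC 0.11.9, Cutadapt 3.5, Bowtie2 2.4.1 and RSEM 1.3.1 on mm10 with Ensembl release 99, and ran DESeq2 1.36.0 in R 4.1. The authors deposited FPKM for 54532 gene IDs per tumor, and how FPKM were computed is not given in the sources used here. Low values were whole multiples of 1 read for 97.0% to 97.3% of genes above 0 (tolerance 0.1 read), which gave the library totals, and the count of recovered reads entered only an added alternative. Strand use in counting is not given, so genes that share exon positions on either strand cannot be told apart. This holds for 245 members, of those named also for Rps20, Casp9, Ctnnbip1, Dvl1, Jun, Slc2a1, Nfia, Hacd4, Klhl9, Col15a1, Pik3r3, Esrp1, Sh3bgrl3, Stmn1, Cd72, Car9, Lck, Slc25a33, Pgm1, Zmym4, Atp6v0b and Yars.

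Gene IDs were placed by GENCODE M21 (GRCm38), which held 54409 of them. FPKM were divided by median-of-ratios factors, a pseudocount of 1 was added, and log2 values of genes with a mean of at least 0.5 FPKM were fitted in limma 3.58.1 (R 4.3.3; eBayes with an intensity trend; two-sided; Benjamini-Hochberg over all 15069 genes), a procedure tested on simulated data. No 2 tumors had identical profiles. The members, the 12 lists (190 members in all) and the 9 marker lists were chosen with earlier results of these data known. Named genes were the list members, the 10 lowest among protein-coding members of at least 5 FPKM whose groups did not overlap, the 10 highest, the 5 most abundant, the 3 nearest the minimum on each side, the 5 most and the 5 least like the chromosome's median and the 5 with the smallest range. Some genes that this rule names are not reported here. The alternatives tried are given under the dependence on processing.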

Additional observations from a re-analysis of the deposited data

How the results depend on the processing

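The direction of the chromosome's median was kept under all alternatives tried. Relative to the median of all genes it was -0.41, and with no filter on low FPKM -0.16 over 1642 genes, of which 74.1% were lower against 83.9% of the 926 members. With a minimum of 2 FPKM, 90.2% were lower and 11 genes were higher at an unadjusted p under 0.05. With protein-coding genes only, 87.5% were lower. Leaving out each tumor in turn gave medians from -0.57 to -0.32, shares from 79.8% to 84.6%, 111 to 429 genes lower and 12 to 19 higher at an unadjusted p under 0.05, and 0 to 1 genes at an adjusted p of 0.05 (Epha2, without IgG replicate 1). Without the members that overlap another gene, 133 of 473 were lower and 10 higher at an unadjusted p under 0.05. With a pseudocount of 0.1 the median was -0.52, and centred outside chromosomes 4, 9 and 15 it was -0.44. limma-voom on recovered reads, chosen after seeing the data, gave a median of -0.54, 288 lower and 17 higher at that unadjusted level and 0 at an adjusted p of 0.05. Replicate numbers did not pair the tumors: deviations from the group means of equal-numbered tumors correlated across genes at -0.16, 0.01 and 0.19, and 2 of 6 tumors correlated best with their own number. A fit with the replicate block gave 233 lower and 18 higher at an unadjusted p under 0.05. Of 3495 values of named genes under the alternatives, 23 moved by more than the gene's own SD within groups, and of 204 list medians 2 moved by more than the median of that SD over the list, both of the Wnt list (-0.07 without IgG replicate 2, and 0.22 over the 2 genes that overlap no other).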

Other observations

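Noncoding members at 5 FPKM or more, 13 genes picked out after their values were seen, held some of the widest differences. The lincRNA gene Gm13056 was at 7.49, 9.01 and 12.7 FPKM in IgG replicates 1, 2 and 3 and at 1.66, 3.36 and 1.79 FPKM in anti-PD-1 replicates 1, 2 and 3, a log2 fold change of -1.72 ± 0.27 with no overlap between groups. Ttc39aos1, an antisense gene, was at 8.05, 22.8 and 24.4 against 7.60, 8.27 and 8.78 FPKM, so that IgG replicate 1 could not be told from the anti-PD-1 tumors. The processed pseudogene Gm12715 went the other way, at 8.78, 6.43 and 6.65 against 12.2, 22.4 and 14 FPKM.

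The 2 Mup genes among the members were highest in IgG replicates 2 and 3. Mup6 was at 2, 5.54 and 6.27 FPKM in the IgG tumors and at 0.781, 0.371 and 1.73 FPKM in the anti-PD-1 tumors, and Mup3 at 2.69 FPKM in IgG replicate 2, 0.499 FPKM in IgG replicate 3 and 0 in the other 4 tumors. Genes of this family are near-identical, and their reads could be split among copies. The gene records of the microRNAs Mir34a, Mir200a and Mir200b passed the minimum on 0 to 7 recovered reads per tumor, too few to compare.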
